A study of Mus musculus with 4 samples.

Results

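The genes described here are the 42 genes of glycolysis, lactate and glycogen metabolism in a list of enzymes, transporters and scaffold proteins, found by their symbols among the 55401 genes counted in the semimembranosus, a hamstring muscle of the thigh. All 42 symbols were found, under 43 identifiers, because Aldoa names 2 of them. The identifier with the higher count carries the symbol below, and the other, ENSMUSG00000114515.2, held 27 to 65 counts per library and was left out of the 42. The libraries came from C57BL/6 mice labelled 8 weeks old, and all of these mice carried a stenosis of the left external iliac vein, set with a ligature around the vein and a 30-gauge needle. Controls (group IVS, 2 libraries) were given daily saline into the stomach. Treated mice (group IVS_diosmin, 2 libraries) were given diosmin, a flavonoid taken for vein disease, by the same route at a daily 40 mg/kg. No group without stenosis was analysed here, so the levels have no unoperated reference. The comparison asks how the transcripts of sugar metabolism in this muscle differ when mice with the stenosis receive diosmin.

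Skeletal muscle takes up glucose through the transporter encoded by Slc2a4, traps it as glucose 6-phosphate, and either stores it as glycogen or breaks it down to pyruvate and lactate. Fast fibres rely on glycolysis and on their own glycogen, which phosphorylase releases when a contraction starts. Many steps can be carried out by several isozymes (enzymes that catalyse the same reaction from different genes), and muscle has its own form of many of them.

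With diosmin, 5 of the 41 members with enough counts to test rose and none fell. Of these, 3 belong to glycogen synthesis: Gyg, the self-glucosylating primer of glycogen, Gys1, the muscle glycogen synthase, and Ugp2, which makes the UDP-glucose that the synthase adds. The other two were Fbp2, the muscle fructose bisphosphatase, and Pgk1, the phosphoglycerate kinase of lower glycolysis. Their fold changes ran from 1.77 for Gys1 to 2.69 for Fbp2. The abundant Aldoa and Eno3 did not pass the test, and neither did Pgam2, the muscle phosphoglycerate mutase, whose values were lower with diosmin (log2 -0.66 ± 0.21, SE). Leaving out replicate 2 of either group ended all 5 calls, and only that of Fbp2 held without IVS replicate 1 or without IVS_diosmin replicate 1.

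Changes were tested with the quasi-likelihood test of edgeR over all 13533 genes with enough counts, 2-sided, with Benjamini-Hochberg adjustment, and a call means an adjusted p under 0.05. Adjusted p-values are from this edgeR test unless DESeq2 is named, and the error of a log2 fold change (IVS_diosmin minus IVS) is its SE. Of all tested genes 2.96% were called (1.17% higher and 1.78% lower with diosmin), against 12.2% of the tested members. At an unadjusted p under 0.05, 15 members were higher and 1 was lower, beside 7.91% and 8.91% of all tested genes. The count of members called lower was 0 with edgeR and 1 with DESeq2 (Pgam2, adjusted p = 0.0161). The median log2 fold change was 0.26 over the 41 members and 0.01 over all tested genes. Without IVS_diosmin replicate 1 the members' median was 0.43, and without IVS_diosmin replicate 2 it was 0.11. In 19 members (46.3%) both diosmin libraries lay above both IVS libraries, as in 23.4% of all tested genes. In 5 members (12.2%) both lay below, as in 24.1% of all tested genes. The labels do not say that replicates came from separate mice, so the p-values rest on the variation among these 4 libraries alone, and that variation may be technical.

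Gene counts summed to between 13056650 and 15324354 per library, and the 42 members held 3.03% to 3.73% of them. The labelled tissue was checked by muscle markers: Ckm, Acta1 and Tnnt3 ranged from 11102 to 19763 CPM (counts relative to library size, normalised between libraries by the TMM method of edgeR) over the 4 libraries. These 3 of the 5 muscle fibre markers were not called. The other two rose: Mb, the oxygen store myoglobin, from 382 and 277 CPM to 929.5 and 547 CPM (log2 1.16 ± 0.27, adjusted p = 0.0460), and Des, the intermediate filament desmin, from 1611 and 1689.7 CPM to 3141 and 2945 CPM (log2 0.88 ± 0.20, adjusted p = 0.0365). Several other features moved with the groups, and their part in the results below was not tested. Reads aligned to more than 1 place were 37.7% and 38.8% of the reads in IVS and 45.6% and 43.6% with diosmin. The rRNA gene CT010467.1 took 4.14% and 3.801% of gene counts in IVS and 1.16% and 0.936% with diosmin. Of 7 slow fibre markers 6 rose, with a summed level of 39.7 and 40.5 CPM in IVS replicates 1 and 2 and of 3403 and 1303 CPM in IVS_diosmin replicates 1 and 2. Of 8 endothelial markers 4 fell, with a summed level of 388 and 400.1 CPM against 209.6 and 213 CPM, and none of the 8 was at 0 in all libraries. Of 6 fast fibre markers 1, Myh1, rose (log2 1.17), and the sums were 55950 and 56368 CPM against 46066 and 45003 CPM. The list was split: Myh2 and Actn3 also had higher values with diosmin (log2 2.63 and 0.56, not called). Myh4, Tnni2 and Pvalb had lower ones (log2 -0.24, -0.72 and -0.65, not called). Of 5 adipocyte markers 1, Fabp4, fell, and their sums were 415 and 511 CPM in IVS against 216 and 182 CPM with diosmin, nearly all of it Fabp4, which endothelial cells also express. Adipoq, Plin1, Cidec and Lep lay between 0 and 4.79 CPM. In whole muscle, fewer cells of a type and less RNA per cell cannot be told apart.

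Levels of different genes are compared here as CPM per kb of exon. Aldoa, the muscle aldolase that splits fructose 1,6-bisphosphate, had the highest level of the members, between 4307 and 5651 CPM per kb. Pgam2 followed at 2148 to 3932 CPM per kb, Eno3, the muscle enolase, at 1474 to 1544, Pygm, the muscle glycogen phosphorylase, at 745 to 1161, and Pfkm, the muscle phosphofructokinase, at 444 to 646. The ranges of these 5 genes over the 4 libraries did not overlap one another. Those of Ldha, the lactate dehydrogenase typical of fast muscle (235 to 451 CPM per kb), and Pkm, pyruvate kinase (289.8 to 393 CPM per kb), did. At the other end, Hk1, Pfkl, Pfkp and Pygb, forms known best from other tissues, had means between 0.663 and 0.985 CPM per kb over the 4 libraries. Aldoc, the aldolase of brain, had 6 and 0 counts in IVS replicates 1 and 2 and 4 and 0 counts in IVS_diosmin replicates 1 and 2, and was the only member with too few counts to test.

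**Figure D1:**
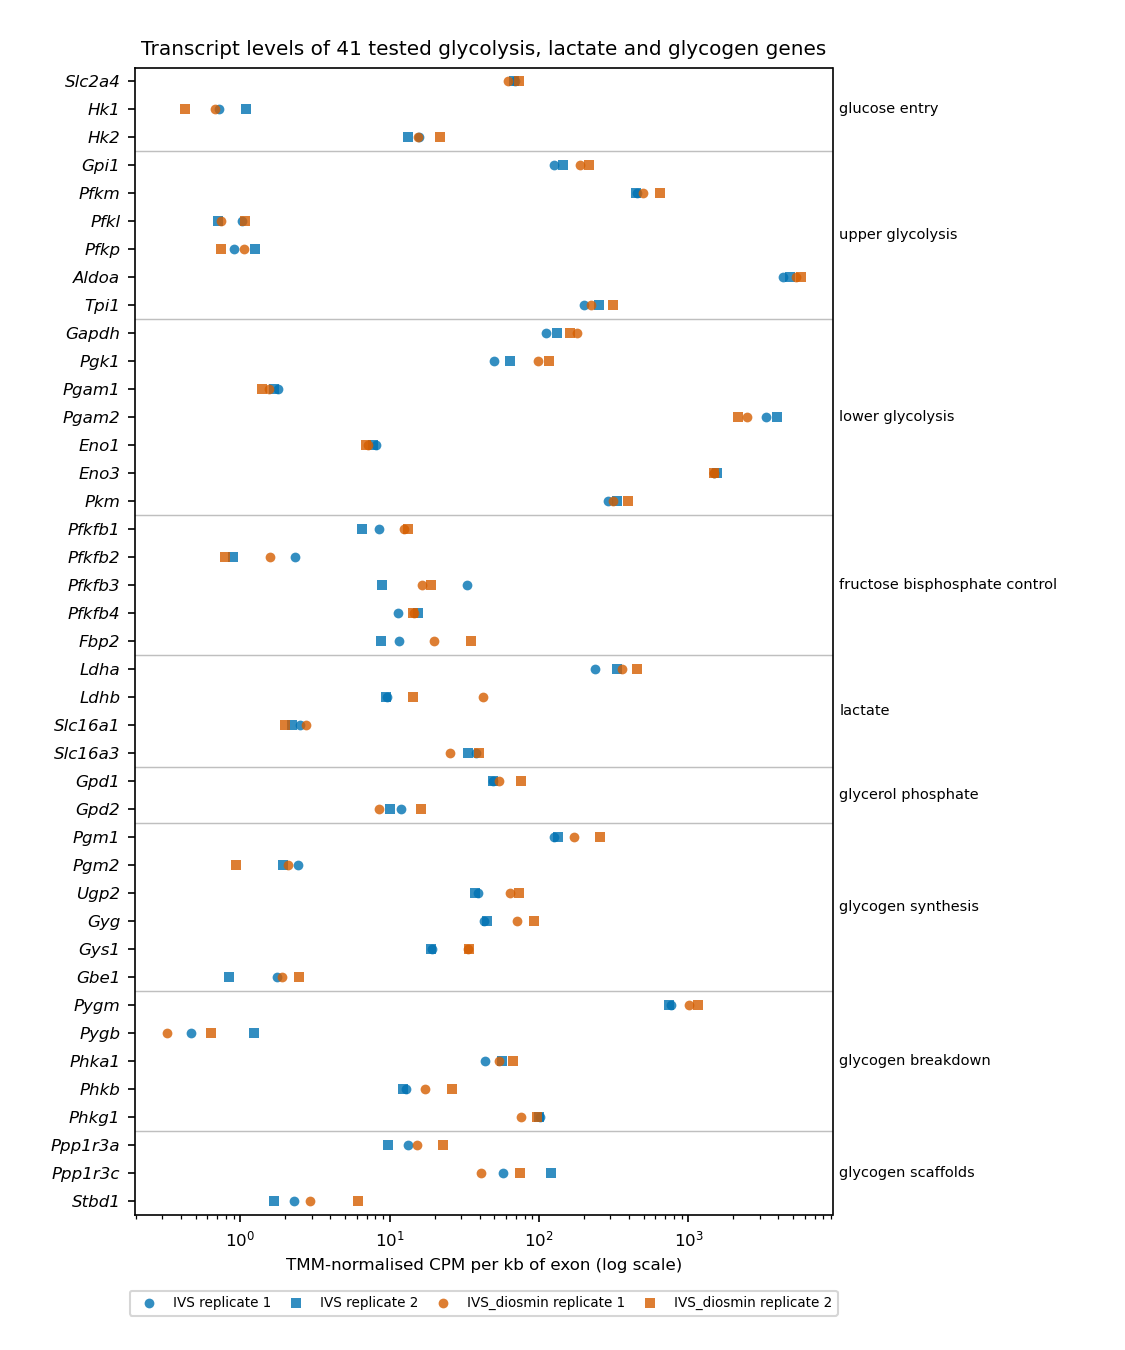
Levels of the 41 tested members in each library, as TMM-normalised CPM per kb of exon on a log axis, grouped by role, with IVS in blue, IVS_diosmin in orange, replicate 1 as circles and replicate 2 as squares. Aldoa, Pgam2 and Eno3 have the highest levels in every library, and for Gys1, Ugp2 and Gyg both orange points lie to the right of both blue points.

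Of the 3 genes of glucose entry none was called. Slc2a4, the insulin-responsive glucose transporter, measured 241 and 236 CPM in the IVS libraries (replicate 1, then 2) against 216 and 254 CPM in the diosmin libraries (log2 -0.02 ± 0.20, adjusted p = 0.975). Its groups overlapped. Hk2, the main hexokinase of muscle, was at 93.5 and 78.9 CPM in IVS and at 92.8 and 129.9 CPM with diosmin, in the same order of replicates as all pairs of values below (log2 0.37 ± 0.22, adjusted p = 0.449). Hk1, the broadly expressed hexokinase, was at 6.12 and 9.34 CPM in IVS and at 5.78 and 3.61 CPM with diosmin (log2 -0.71 ± 0.37, adjusted p = 0.363). Hk2 overlapped between the groups, and both diosmin values of Hk1 lay below both IVS values.

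Upper glycolysis runs from glucose 6-phosphate to the triose phosphates. There, 5 of 6 tested genes had higher values with diosmin, beside 6834 of all 13533 tested genes. None was called (1 was higher at an unadjusted p under 0.05, beside 7.91% of all tested genes). Gpi1, which turns glucose 6-phosphate into fructose 6-phosphate, was at 814 and 930.2 CPM in IVS and at 1218 and 1382 CPM with diosmin (log2 0.58 ± 0.20, adjusted p = 0.165, and 0.0479 by DESeq2). Pfkm, which catalyses the committed step, was at 1516 and 1483 CPM in IVS and at 1657 and 2158 CPM with diosmin (log2 0.35 ± 0.21, adjusted p = 0.452). Aldoa was at 12537 and 13992 CPM against 15246 and 16449 CPM (log2 0.26 ± 0.20, adjusted p = 0.592). In these 3 genes the groups did not overlap, but the difference did not pass the test. Tpi1, triosephosphate isomerase, overlapped between the groups, at 553 and 696 CPM against 608 and 860 CPM (log2 0.23 ± 0.23, adjusted p = 0.684). The minor phosphofructokinases Pfkl and Pfkp stood at 4.71 to 7.15 CPM and at 9.86 to 16.7 CPM, also with overlapping groups.

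Members of lower glycolysis, which yields ATP and pyruvate, differed in direction. Pgk1 (ENSMUSG00000062070.12, mm10 chromosome X, 106187100 to 106203699) rose from 112 and 144 CPM in IVS to 221 and 263 CPM with diosmin (log2 0.92 ± 0.22, adjusted p = 0.0407). Both diosmin libraries lay above both IVS libraries. Pgk1 missed the threshold whichever library was left out, with adjusted p of 0.207 and 0.136 without IVS replicates 1 and 2 and of 0.176 and 0.175 without IVS_diosmin replicates 1 and 2. Gapdh, the dehydrogenase before it in the pathway, was at 459 and 546 CPM in IVS and at 742 and 663 CPM with diosmin (log2 0.48 ± 0.21, adjusted p = 0.254). Pgam2, which acts on the product of phosphoglycerate kinase, was at 2784 and 3303 CPM in IVS and at 2059 and 1804 CPM with diosmin (log2 -0.66 ± 0.21, adjusted p = 0.120). Here both diosmin libraries lay below both IVS libraries, the reverse of Pgk1 and Gapdh. Eno3 held nearly the same level throughout, at 2573 and 2684 CPM against 2563 and 2577 CPM (log2 -0.03 ± 0.20, adjusted p = 0.962). Pkm overlapped between the groups, at 1449 and 1653 CPM against 1555 and 1966 CPM (log2 0.18 ± 0.21, adjusted p = 0.741). Pgam1 and Eno1, the forms of most other tissues, were at 2.78 to 3.54 CPM and at 37.3 to 43.3 CPM, with both diosmin values just below both IVS values in each gene (adjusted p = 0.845 and 0.743).

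The counts of Gapdh and Pgk1 cover only part of their transcripts, because both genes have copies elsewhere in the genome. A read that fits more than 1 place is counted for no gene, and the share of such reads was higher in the diosmin libraries, as given above. Of the 100-base windows of the Gapdh transcript, 85.8% were found letter for letter, on either strand, in transcripts of 86 other annotated genes. Of these genes 82 are pseudogenes. The genes sharing those windows held more counts (9094 to 13047 per library) than Gapdh itself (6724 to 9629). Of the windows of the Pgk1 transcript 67.0% were shared, and within its longest open reading frame 100% were, with 3 pseudogenes that held 7 to 21 counts. The levels of Gapdh and Pgk1 are therefore uncertain, and the part of the multiply aligned reads in the call of Pgk1 was not tested. Other members with most of their windows shared were Pfkfb2 (61.4%) and Eno1 (59.0%), followed by Pgam1 (39.7%). Those of Pfkfb2 were with Gm29427, an annotated gene that overlaps Pfkfb2 on the same strand, and not with a copy elsewhere. Pfkfb2 also lies opposite Yod1 over 154 exon bases. Yod1 held 41 to 98 counts per library beside 80 to 293 for Pfkfb2, so the level of Pfkfb2 is uncertain. In all, 15 members shared windows and 27, among them Fbp2, Gyg, Ugp2, Aldoa, Pgam2 and Pygm, shared none with the annotated transcripts. Shared windows of Gys1, Phkg1, Pfkp, Gpd1 and Gpd2 were with genes that overlap them on the opposite strand, not with copies elsewhere.

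**Figure D2:**
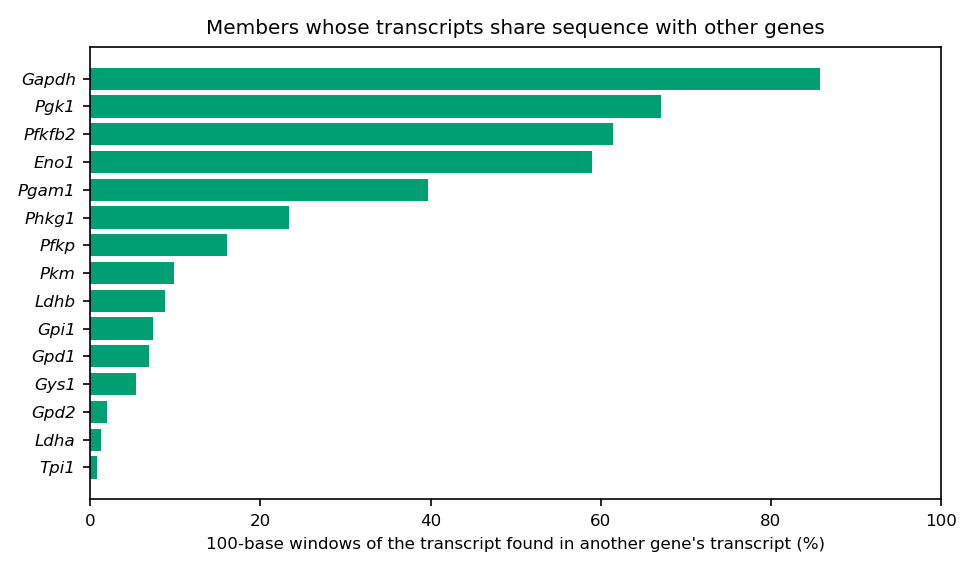
Share of the 100-base windows of each member's transcript found letter for letter, on either strand, in a transcript of another annotated gene. Values are in percent, for the 15 members with any, and include genes that overlap the member at the same place. Gapdh (85.8%) and Pgk1 (67.0%) have the largest shares. Gys1, among the genes called, has 5.34%, shared with Ruvbl2 on the opposite strand.

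The enzymes that set the level of fructose 2,6-bisphosphate and the enzyme that runs the phosphofructokinase step backwards gave 1 call among 5 genes. The share of all tested genes called higher was 1.17%. Fbp2 (ENSMUSG00000021456.8, mm10 chromosome 13, 62836877 to 62858422), the fructose bisphosphatase of muscle that returns carbon from lactate towards glycogen, rose from 16.8 and 12.9 CPM in IVS to 29.0 and 51.1 CPM with diosmin (log2 1.43 ± 0.28, adjusted p = 0.0232). It had the lowest p of the members, and its diosmin replicates differed more than its IVS replicates. The call of Fbp2 held without IVS replicate 1 (log2 1.63, adjusted p = 0.0266) and, at the edge, without IVS_diosmin replicate 1 (log2 1.78, adjusted p = 0.0497). It was lost without IVS replicate 2 (log2 1.25, adjusted p = 0.186) and without IVS_diosmin replicate 2 (log2 0.94, adjusted p = 0.125). Pfkfb1, one of 4 genes for the bifunctional kinase and phosphatase of fructose 2,6-bisphosphate, was at 34.0 and 26.3 CPM in IVS and at 49.96 and 52.8 CPM with diosmin (log2 0.77 ± 0.21, adjusted p = 0.0765, and 0.0406 by DESeq2). Its 2 groups did not overlap. Pfkfb3, the inducible form with high kinase activity, was at 250 and 66.7 CPM in IVS and at 123 and 142 CPM with diosmin (log2 -0.25 ± 0.65, adjusted p = 0.902). The IVS replicates of Pfkfb3 thus enclosed both diosmin values. Pfkfb2, at 16.8 and 6.501 CPM against 11.4 and 5.69 CPM, and Pfkfb4, at 55.2 and 74.9 CPM against 70.5 and 70.0 CPM, overlapped between the groups as well (adjusted p = 0.717 and 0.855).

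Of the 4 lactate genes none was called, and 2 were higher at an unadjusted p under 0.05, beside 7.91% of all tested genes. Ldha, which favours making lactate from pyruvate, was at 779 and 1093 CPM in IVS and at 1181 and 1491 CPM with diosmin (log2 0.51 ± 0.23, adjusted p = 0.281). Ldhb, the form of heart and oxidative fibres, was at 15.1 and 14.7 CPM in IVS and at 65.9 and 22.5 CPM with diosmin (log2 1.57 ± 0.50, adjusted p = 0.199, and 0.00267 by DESeq2). The groups of both genes were apart, but Ldhb was high in a single library, IVS_diosmin replicate 1. Without IVS_diosmin replicate 2 Ldhb passed (log2 2.13, adjusted p = 0.000399), and without IVS_diosmin replicate 1 it did not (log2 0.59, adjusted p = 0.398). The same replicate had the higher level of slow fibre markers given above, and the part of fibre type in Ldhb was not tested. Slc16a3, the lactate exporter of fast fibres, was at 200.001 and 177 CPM against 135 and 210.3 CPM (log2 -0.13 ± 0.24, adjusted p = 0.853). Slc16a1, the lactate carrier of oxidative cells, was at 11.1 and 9.75 CPM against 12.2 and 8.82 CPM (log2 0.00 ± 0.28, adjusted p = 0.997). Both carriers overlapped between the groups.

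The glycerol phosphate shuttle carries reducing equivalents from the cytosol to mitochondria. Gpd1, its cytosolic enzyme, was at 145 and 144 CPM in IVS and at 160.4 and 223 CPM with diosmin (log2 0.40 ± 0.22, adjusted p = 0.382). Gpd2, its mitochondrial enzyme, was at 77.5 and 65.6 CPM against 55.2 and 106 CPM (log2 0.18 ± 0.28, adjusted p = 0.825). Gpd1 lies opposite Gm16537 over 384 exon bases, and that gene held 346 to 717 counts per library beside 1777 to 3215 for Gpd1, so its level is uncertain. Diosmin replicate 2 was highest in both enzymes, and replicate 1 was close to IVS for Gpd1 and below it for Gpd2.

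Glycogen synthesis held most of the calls, with 3 of its 6 genes called higher, beside 1.17% of all tested genes. In 5 of the 6 both diosmin libraries lay above both IVS libraries, as in 23.4% of all tested genes. Gys1 (ENSMUSG00000003865.16, mm10 chromosome 7, 45434844 to 45456619), which extends the glycogen chains, rose from 92.2 and 89.9 CPM in IVS to 159.9 and 162 CPM with diosmin (log2 0.82 ± 0.20, adjusted p = 0.0427). Its replicates lay closest together among the genes called. Gyg (ENSMUSG00000019528.18, mm10 chromosome 3, 20122084 to 20155317), on which a new glycogen particle starts, rose from 99.9 and 105 CPM to 168 and 217 CPM (log2 0.91 ± 0.21, adjusted p = 0.0396). Ugp2 (ENSMUSG00000001891.16, mm10 chromosome 11, 21321138 to 21371201) rose from 120.4 and 114 CPM to 195 and 225 CPM (log2 0.84 ± 0.20, adjusted p = 0.0447). Each of the 3 missed the threshold whichever library was left out. The adjusted p then ran from 0.128 to 0.289 for Gys1, from 0.135 to 0.235 for Gyg and from 0.128 to 0.309 for Ugp2, while the log2 fold changes stayed between 0.69 and 1.08. With library sizes not scaled by TMM, the adjusted p of Gys1, Gyg, Ugp2 and of Pgk1 was 0.130, 0.0882, 0.128 and 0.0679. Gys1 lies opposite Ruvbl2 over 310 exon bases, where, with the strand setting not given, reads of the 2 genes cannot be told apart, and Ruvbl2 held 232 to 278 counts per library beside 1106 to 2340 for Gys1.

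The other genes on the way to glycogen were not called. Pgm1, which moves the phosphate of glucose 6-phosphate to position 1, was at 368 and 391 CPM in IVS and at 501 and 752 CPM with diosmin (log2 0.72 ± 0.23, adjusted p = 0.123, and 0.0293 by DESeq2). Gbe1, the branching enzyme, was at 9.38 and 4.47 CPM against 10.2 and 13.2 CPM (log2 0.74 ± 0.35, adjusted p = 0.317). In both genes the groups were apart, with IVS replicate 1 of Gbe1 close to diosmin replicate 1. Pgm2, a related phosphomutase that acts mainly on pentoses, was at 6.29 and 4.96 CPM against 5.40 and 2.43 CPM (log2 -0.53 ± 0.42, adjusted p = 0.592).

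**Figure D3:**
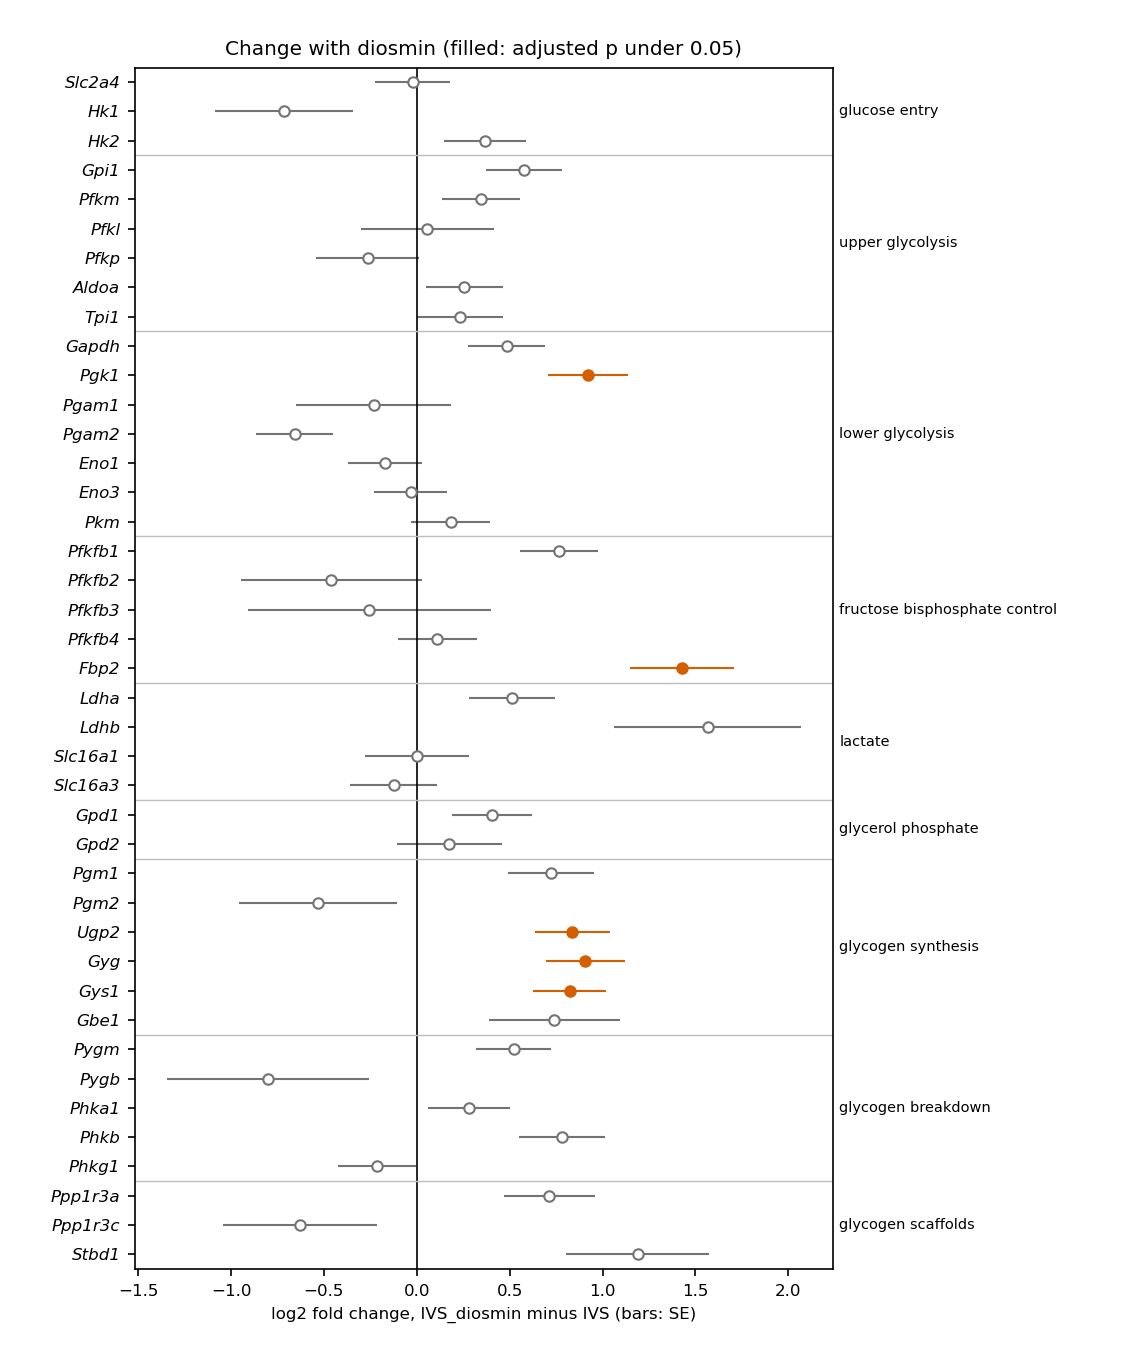
Log2 fold change of the 41 tested members, IVS_diosmin minus IVS, with SE bars, grouped by role; filled orange points passed an adjusted p of 0.05 in edgeR. The called genes are Pgk1, Fbp2, Ugp2, Gyg and Gys1. Of the 41 points 27 lie to the right of 0, as do 6834 of all 13533 tested genes.

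**Figure D4:**
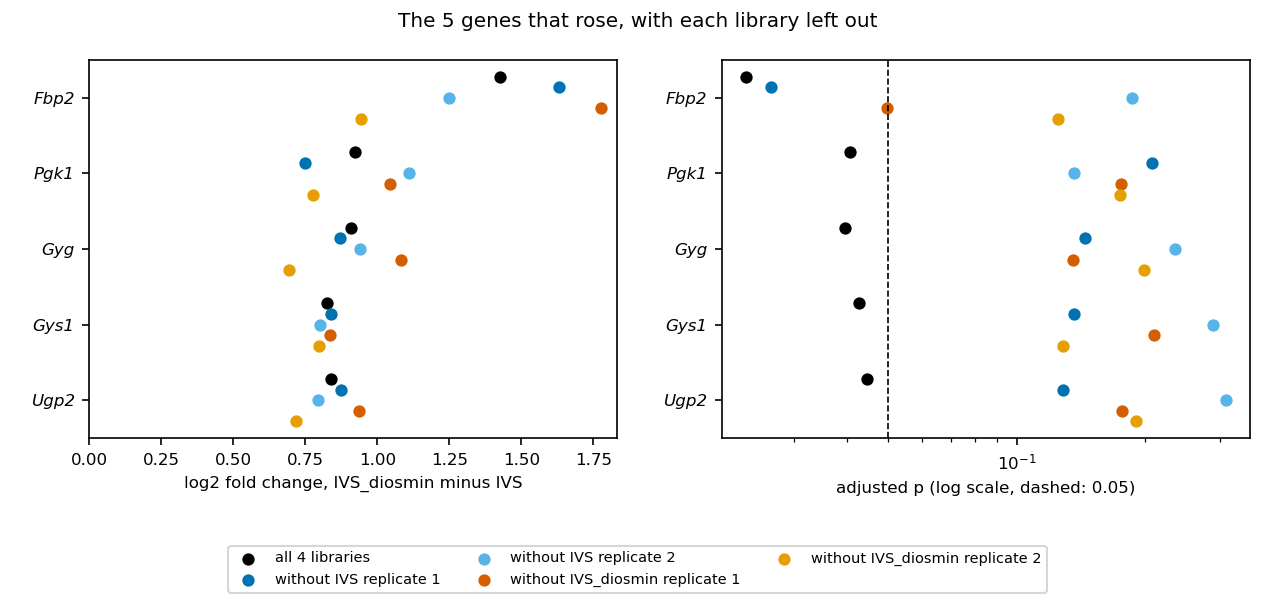
Log2 fold change (left) and adjusted p on a log axis (right) of the 5 called genes with all 4 libraries and with each library left out. The fold changes stay above 0 for all 5, and only Fbp2 has points left of the dashed line at 0.05 other than with all 4 libraries.

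The promoters of 4 of the called genes are shown because these genes were called together; they come from RefSeq (GRCm38.p6, the build of mm10), reach from 250 bases before to 50 after a listed transcription start, and run 5′ to 3′ on the gene's strand. Capitals mark ACGTG and GCGTG, the core that hypoxia-inducible factors bind, on either strand (the E-box CACGTG contains ACGTG on both strands). Those of Fbp2 (chr13:62858351-62858650, minus strand) and Gyg (chr3:20155067-20155366, minus strand) hold 1 E-box each, and that of Gyg a further GCGTG. That of Pgk1 (chrX:106186850-106187149, plus strand) holds ACGTG 2 times, and that of Gys1 (chr7:45434589-45434888, plus strand) holds neither.
Fbp2: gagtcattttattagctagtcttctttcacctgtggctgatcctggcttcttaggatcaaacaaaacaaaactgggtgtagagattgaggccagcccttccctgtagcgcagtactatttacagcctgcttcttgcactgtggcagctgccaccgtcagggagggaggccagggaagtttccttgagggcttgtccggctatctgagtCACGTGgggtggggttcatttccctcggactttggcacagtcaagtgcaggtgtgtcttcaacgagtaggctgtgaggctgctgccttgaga
Gyg: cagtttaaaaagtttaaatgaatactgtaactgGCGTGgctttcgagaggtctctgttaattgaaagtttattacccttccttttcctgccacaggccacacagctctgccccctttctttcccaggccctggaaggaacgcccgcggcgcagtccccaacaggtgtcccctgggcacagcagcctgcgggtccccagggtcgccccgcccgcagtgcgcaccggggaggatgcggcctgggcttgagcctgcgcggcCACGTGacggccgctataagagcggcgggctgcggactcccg
Pgk1: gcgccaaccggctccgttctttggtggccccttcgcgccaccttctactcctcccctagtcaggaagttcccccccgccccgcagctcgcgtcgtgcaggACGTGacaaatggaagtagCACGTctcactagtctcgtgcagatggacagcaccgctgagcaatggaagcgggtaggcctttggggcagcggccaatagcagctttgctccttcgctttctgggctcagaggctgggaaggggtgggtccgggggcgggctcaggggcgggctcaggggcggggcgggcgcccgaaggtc
Gys1: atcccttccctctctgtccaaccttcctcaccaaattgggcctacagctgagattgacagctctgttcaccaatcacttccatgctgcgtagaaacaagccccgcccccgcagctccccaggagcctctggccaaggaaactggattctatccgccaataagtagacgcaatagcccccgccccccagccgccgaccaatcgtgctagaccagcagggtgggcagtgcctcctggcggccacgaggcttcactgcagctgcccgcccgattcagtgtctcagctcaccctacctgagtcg
Ugp2 has 2 listed starts, of which one holds both cores and the other holds neither. RefSeq promoters were found for 40 of the 42 members, not for Slc2a4 and Gpd1. At least 1 promoter held ACGTG or GCGTG in 33 of these 40 members, so the cores are not particular to the called genes. Of the 59 listed promoters of members, 72.9% held ACGTG or GCGTG, against 61.1% of the 12578 promoters of tested genes and 43.8% of all 32851 promoters. ACGTG alone was in 45.8%, 25.0% and 19.6% of them, GCGTG in 50.8%, 49.7% and 32.4%, and CACGTG in 13.6%, 9.78% and 7.15%. Starts of 1 gene can overlap, so these promoters are not independent, and a match describes the letters only.

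Glycogen breakdown was not called at any of its 5 genes. At an unadjusted p under 0.05, 2 were higher and 0 lower, beside 7.91% and 8.91% of all tested genes. Pygm, which releases glucose 1-phosphate from glycogen, was at 2462 and 2399 CPM in IVS and at 3247 and 3737 CPM with diosmin (log2 0.52 ± 0.20, adjusted p = 0.205). Phkb, the regulatory beta subunit of phosphorylase kinase, was at 95.9 and 90.8 CPM against 128 and 193 CPM (log2 0.78 ± 0.23, adjusted p = 0.0945, and 0.0246 by DESeq2). Both genes had all diosmin values above all IVS values. The other subunits of the same kinase did not share that order. Phka1, the muscle alpha subunit, overlapped between the groups at 269.9 and 354 CPM against 339 and 419 CPM (log2 0.28 ± 0.22, adjusted p = 0.583). Phkg1, the catalytic subunit of muscle, was at 655 and 649.8 CPM against 490.1 and 634 CPM (log2 -0.22 ± 0.21, adjusted p = 0.680), with both diosmin values below both IVS values. Phkg1 lies opposite Sumf2 over 630 exon bases, and Sumf2 held 0.367 to 0.478 times its counts, so its level is uncertain. Pygb, the brain phosphorylase, was at 2.23 and 5.93 CPM against 1.54 and 3.05 CPM (log2 -0.80 ± 0.54, adjusted p = 0.512).

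The proteins that bind glycogen to regulate or anchor it also gave no call. Ppp1r3a, which brings protein phosphatase 1 to glycogen in muscle, was at 92.9 and 67.9 CPM in IVS and at 105 and 158 CPM with diosmin (log2 0.71 ± 0.24, adjusted p = 0.153). Stbd1, which tethers glycogen to membranes, was at 5.03 and 3.74 CPM against 6.48 and 13.6 CPM (log2 1.19 ± 0.39, adjusted p = 0.132). In both genes diosmin replicate 2 was the highest library and replicate 1 lay just above IVS. Ppp1r3c, another targeting subunit of phosphatase 1, was at 155 and 328 CPM against 111 and 202 CPM (log2 -0.63 ± 0.42, adjusted p = 0.528). Replicates of Ppp1r3c differed within each group by more than the groups did.

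Isozyme pairs were compared as the log2 ratio of length-scaled levels within each library, which does not depend on the scaling between libraries. For 12 pairs the exact permutation test over 2 against 2 libraries cannot go below p = 0.333, so the values are a description. The muscle form dominated most pairs. Pgam2 stood 1514 to 2311 times above Pgam1, Pygm 600.3 to 3070 times above Pygb, Pfkm 440 to 666 times above Pfkl and 356 to 875 times above Pfkp, and Eno3 184 to 214 times above Eno1. Pfkp lies opposite Pitrm1 over 748 exon bases, and Pitrm1 held 260 to 339 counts per library beside 142 to 213 for Pfkp, so the level of Pfkp and its ratio to Pfkm are uncertain. Within the longest open reading frames of Pgam1 and Eno1, 100% and 69.15% of the 100-base windows were shared with other genes. For Pgam2 and Eno3 it was 0%. Because reads that fit more than 1 place are counted for no gene, the ratios of Pgam2 to Pgam1 and of Eno3 to Eno1 are uncertain too. The counts of Aldoc were too low for a ratio to Aldoa. Open reading frames of these pairs were still alike, with 74.8% of aligned bases identical between Pgam1 and Pgam2, 76.7% between Eno1 and Eno3 and 77.3% between Pygb and Pygm.

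The groups did not overlap in 5 of the 12 pairs, each with an exact p of 0.333, and nothing is read from that count, since among all tested genes 23.4% had both diosmin libraries above and 24.1% both below. The mean log2 ratio of Hk1 to Hk2 was -4.02 in IVS and -5.09 with diosmin, that of Pygb to Pygm -9.95 and -11.20, and that of Eno1 to Eno3 -7.58 and -7.72. That of Pgam1 to Pgam2 was -11.01 and -10.58. Pgm1 exceeded Pgm2 by 5.90 on the log2 scale in IVS and by 7.22 with diosmin. The share of Ldhb in the lactate dehydrogenase pair was 3.93% and 2.76% in IVS and 10.5% and 3.09% with diosmin, so IVS_diosmin replicate 1 stood alone and replicate 2 lay within the IVS range. The lactate carriers split the diosmin libraries in the same way, with Slc16a1 at 9.78% of its pair in replicate 1 and 4.81% in replicate 2, on either side of the IVS values of 6.29% and 6.23%. The ratio of Pfkfb1 to Pfkfb3 was low in IVS replicate 1, where Pfkfb3 was highest, with Pfkfb1 at 20.4% of the pair and at 41.1% to 43.3% in the other libraries. Gpd2 and Gpd1, which catalyse the 2 ends of the glycerol phosphate shuttle, overlapped between the groups, with Gpd2 at 13.5% to 19.4%.

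**Figure D5:**
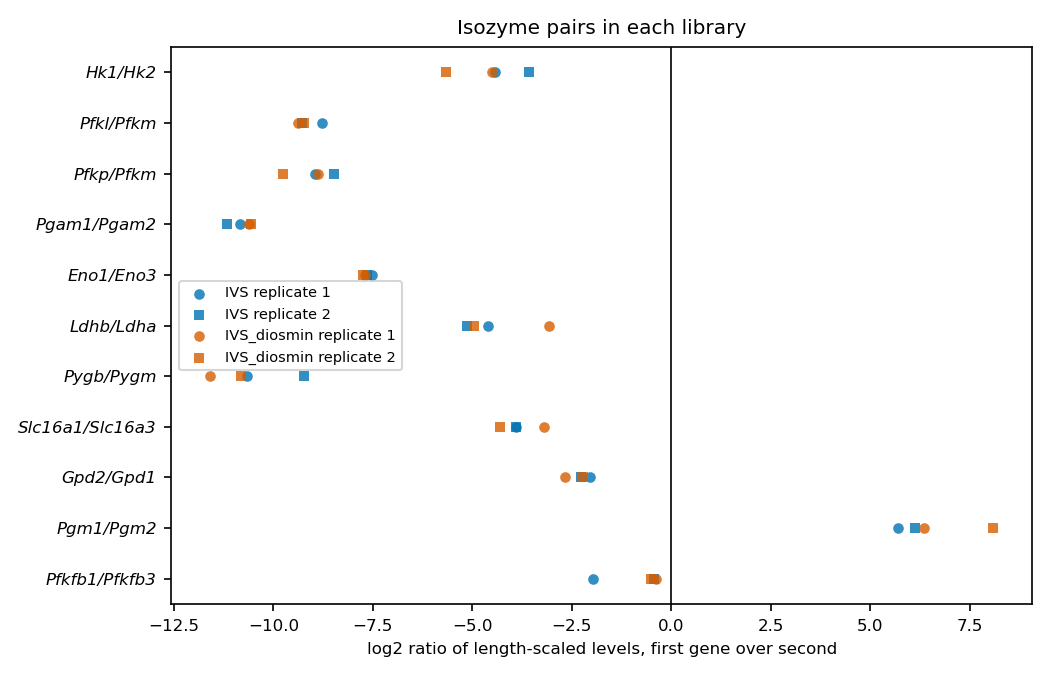
Log2 ratio of length-scaled levels of the first gene over the second in each library, for 11 pairs (Aldoc had too few counts), with IVS in blue, IVS_diosmin in orange, circles for replicate 1 and squares for replicate 2. Pgm1 is the only first gene above its partner, and the Ldhb point of IVS_diosmin replicate 1 lies apart from the other libraries.

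Another 69 genes around this pathway were read from the same fit, and 54 had enough counts. Of these, 3 rose and 0 fell with edgeR, beside 1.17% and 1.78% of all tested genes. At an unadjusted p under 0.05, 16 were higher and 3 lower, beside 7.91% and 8.91% of all tested genes. DESeq2 called 5 higher and 1 lower, beside 259 and 347 of all genes. The median log2 fold change of the 54 was 0.28, and that of all tested genes was 0.01. Tigar, a phosphatase that lowers fructose 2,6-bisphosphate, rose from 55.2 and 37.9 CPM in IVS to 93.4 and 136 CPM with diosmin (log2 1.30 ± 0.25, adjusted p = 0.0184). Pdk1, a kinase that switches off pyruvate dehydrogenase, rose from 13.3 and 11.4 CPM to 24.4 and 27.01 CPM (log2 1.06 ± 0.22, adjusted p = 0.0282). In both genes the diosmin libraries lay above the IVS libraries. Tigar passed again without IVS replicate 1 (adjusted p = 0.0155), but not without any other library (0.0875 to 0.201). Pdk1 missed the threshold whichever library was left out (0.0560 to 0.223). Txnip, which restrains glucose uptake, was at 616 and 370.1 CPM against 268 and 213 CPM and narrowly missed the threshold (log2 -1.03 ± 0.26, adjusted p = 0.0530, and 0.00182 by DESeq2).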

How the data were processed

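Poly(A) RNA of 4 semimembranosus libraries was sequenced. Each library has its own deposited table of unnormalised read counts by gene. Per the submitters' processing notes, the authors used HISAT2 2.1.0, HTSeq and mm10; for the version of HTSeq, the annotation, strand setting and filters, the answer is not given in the sources used here. Genes held 24.9% to 27.7% of the reads listed, and the remainder, in 5 summary lines without a gene, entered neither library sizes nor tests. GENCODE M21 (mm10) gave symbols, positions and exon lengths for 55141 identifiers.

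The count test was that of edgeR 4.0.16 under R 4.3.3 (filterByExpr, TMM, robust quasi-likelihood fit). The SE is the fold change divided by the square root of F. The fit was run on simulated data in which every gene had the same dispersion, so that run does not give its error rates in these data. Alternatives were DESeq2 1.42.0, RLE scaling, no TMM scaling, no filter, a replicate block and leaving out each library; leaving mitochondrial genes and the rRNA gene out of the library size was chosen after seeing the data. Isozyme ratios used a pseudocount of 0.5 counts.

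The members and lists were chosen with earlier results of these data known. All 42 members are accounted for; of related genes, the rule names those past the threshold, of which 1 is not reported here, and Txnip was added after its values were seen.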

Additional observations from a re-analysis of the deposited data

How the results depend on the processing

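The precision of every result is limited by 2 libraries per group; when 1 is left out, the lone library is assumed to vary like the other group. Of 400 genes called in all, the count was 919 with no filter, 606 with DESeq2 and 38 to 366 with 1 library left out. Of 5 members called higher, the count was 1 without TMM scaling (Fbp2), 11 with no filter and 10 with DESeq2. With 1 library left out, most or all of the 5 calls were lost. Members called lower numbered 1 with DESeq2. Related genes called higher numbered 8 with no filter, 5 with DESeq2 and 0 to 2 with 1 library left out; those called lower numbered 1 in the fit without TMM scaling, with no filter and with DESeq2, and 0 to 1 with 1 library left out. The members' median was 0.11 to 0.43 with 1 library left out. Without TMM scaling the median of all genes was -0.11 and that of the members 0.15. RLE scaling, and leaving mitochondrial genes and the rRNA gene out of the library size, moved no call of a member. No called gene changed sign in the alternatives run. With a pseudocount of 2 counts, no isozyme difference moved by more than the spread between replicates. Leaving out 1 library or the length scaling could not move a difference that far by construction, so nothing is read from those settings. The cause of the lost calls was not tested.

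Same-numbered libraries did not deviate together (correlation -0.001365 over 13533 genes). The labels do not say what the numbers stand for, and this value alone cannot show whether same-numbered libraries shared a batch. With a replicate block, 93 genes, 0 members and 0 related genes were called. At an unadjusted p under 0.05, 15 members were higher and 2 lower in that edgeR fit. The share of all genes at that threshold was not computed for it, so nothing is read from these counts.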
